A study of Mus musculus with 6 samples.

Results

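Alpha and mu class glutathione transferases were described in RNA sequencing of whole mouse testis. The 10 genes were Gsta1, Gsta2, Gsta3 and Gsta4 of the alpha class and Gstm1, Gstm2, Gstm3, Gstm5, Gstm6 and Gstm7 of the mu class. They were picked by symbol, as alpha and mu class genes of which some encode enzymes with steroid isomerase activity, and all 10 were found among the 36652 genes of the deposited table. Earlier results of these data were known at that choice, so the genotype differences of the 10 genes are given as a description, with no test. The samples were 3 testis libraries labelled Ccdc117ko and 3 labelled WT, all from mice aged 8 weeks. The labels describe neither the allele nor the strain. They also leave unsaid which mice the replicates are from, so the p-values given for other genes measure only the spread between libraries.

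Glutathione transferases join the tripeptide glutathione to electrophiles such as drug metabolites and the aldehydes made when membrane lipids oxidise, which makes the products soluble and ready for export. Alpha and mu enzymes are soluble dimers, and subunits pair within a class. Human GSTA3 is also known as a steroid isomerase that shifts the double bond of the hormone precursors made by 3-beta-hydroxysteroid dehydrogenase. The mouse testis is rich in mu class enzymes, and germ cells rely on glutathione to protect lipids and chromatin from oxidation.

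In GRCm38 (mm10), Gsta3 stands alone on the plus strand of chromosome 1, from 21240589 to 21265661. The other alpha genes lie together on chromosome 9, Gsta4 at 78182774 to 78209349, Gsta1 at 78230656 to 78242684 and, on the opposite strand, Gsta2 at 78331018 to 78355788. The 6 mu genes lie on chromosome 3, from the start of Gstm5 at 107895821 to the end of Gstm1 at 108017973, with Gstm5 the only member there on the plus strand. All 10 are annotated as protein-coding. The promoters of Gsta3, the gene with the widest genotype difference of the 10, of Gsta2, its nearest relative by coding sequence, and of Gstm5, the most abundant member, are shown because the antioxidant response element, the site bound by the transcription factor NRF2, is known from promoters of this family. Each run holds 250 bases before and 50 bases after the start site from the RefSeq table of GRCm38.p6, 5′ to 3′ on the strand of the gene. They are chr1:21240335-21240634 on the plus strand for Gsta3, chr9:78347096-78347395 on the minus strand for Gsta2 and chr3:107895604-107895903 on the plus strand for Gstm5. Capitals mark matches to a searched motif.
Gsta3: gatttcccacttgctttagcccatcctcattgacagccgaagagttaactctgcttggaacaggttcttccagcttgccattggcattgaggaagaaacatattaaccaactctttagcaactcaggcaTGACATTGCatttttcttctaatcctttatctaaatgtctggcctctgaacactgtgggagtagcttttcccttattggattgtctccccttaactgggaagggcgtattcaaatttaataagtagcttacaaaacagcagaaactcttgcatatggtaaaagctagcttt
Gsta2: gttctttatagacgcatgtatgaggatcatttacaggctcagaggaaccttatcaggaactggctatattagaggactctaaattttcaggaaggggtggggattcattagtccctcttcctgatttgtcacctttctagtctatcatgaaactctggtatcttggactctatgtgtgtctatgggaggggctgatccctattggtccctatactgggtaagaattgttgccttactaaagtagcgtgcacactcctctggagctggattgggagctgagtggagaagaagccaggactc
Gstm5: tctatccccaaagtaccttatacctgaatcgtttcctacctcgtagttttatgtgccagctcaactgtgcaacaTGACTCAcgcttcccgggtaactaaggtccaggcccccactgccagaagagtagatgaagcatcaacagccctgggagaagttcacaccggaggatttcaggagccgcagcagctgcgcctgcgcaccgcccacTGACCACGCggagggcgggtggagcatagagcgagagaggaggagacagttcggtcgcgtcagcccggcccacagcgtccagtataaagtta

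A total of 9 members had entries in that table, 13 promoters in all, and Gsta4 had none. The core of the antioxidant response element, TGACNNNGC on either strand, was found in 3 of the 13 promoters. It starts 121 bases before the start site in Gsta3, 42 before it in Gstm5 and 129 before it in 1 of the Gstm7 promoters. Of all 32851 promoters in the table, 12.4% hold that core. The AP-1 site TGANTCA matched only the Gstm5 promoter among the 13, 176 bases before the start site, against 7.81% of all promoters. The site of the steroidogenic factor NR5A1, AAGGTCA, matched none of the 13, against 4.72% of all promoters. A match says only that these letters are present in this window.

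The whole reads recovered from the table came to 38521519 to 39368277 in the Ccdc117ko libraries and 35791616 to 43461692 in the WT libraries. Ccdc117 itself had 3478, 3772 and 3908 normalized counts in the libraries labelled Ccdc117ko, against 3657, 3826 and 3931 in those labelled WT, and its log2 difference was -0.03 (limma adjusted p = 0.763). The sum over the gene therefore does not check the genotype, and every direction here is that of the libraries labelled Ccdc117ko relative to those labelled WT. The defining markers of Leydig, Sertoli and germ cells were present in every library. Of 32783 genes tested, limma called 1212 higher and 1016 lower at an adjusted p under 0.05, and the median log2 difference was 0.00. With trends of transcript length and GC content removed, 1446 were called higher and 431 lower. Without single libraries that number of calls, 2228, was 22, 6 and 8 (without Ccdc117ko replicates 1, 2 and 3) or 1268, 12 and 21 (without WT replicates 1, 2 and 3). When only genes averaging at least 10 normalized counts were tested it was 3798, and 1714 to 4021 without single libraries.

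Levels between members were compared as normalized counts per kilobase of the longest annotated transcript. Gstm5, whose human counterpart GSTM3 is known from testis and brain, was the most abundant member, with 51915 ± 737 per kilobase in Ccdc117ko testes and 47866 ± 1340 in WT testes (SD, n = 3 each). On that scale it ranked 26th in WT among the 32704 tested genes with a length. Gstm1, a mu transferase abundant in liver, followed with 13293 ± 945 in Ccdc117ko and 12682 ± 933 in WT, and ranked 169th. Gstm2, whose human counterpart is known for conjugating quinones of dopamine, had 7770.4 ± 638 in Ccdc117ko and 7955 ± 501 in WT. The ranges of these 3 genes did not touch in either genotype.

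Next came a group of similar level per kilobase. Gsta4, known for conjugating hydroxynonenal and like products of lipid oxidation, had 1586 ± 78.7 per kilobase in Ccdc117ko and 1732 ± 54.6 in WT. Gstm6 had 1537 ± 61.6 in Ccdc117ko and 1614 ± 53.5 in WT, and Gstm7 had 1494 ± 34.2 in Ccdc117ko and 1579 ± 153 in WT. In WT the range of Gstm7, 1481 to 1755, overlapped those of both others, so the order within this group is not set. In Ccdc117ko the 3 ranges overlapped as well, Gsta4 at 1502 to 1658, Gstm6 at 1474 to 1597 and Gstm7 at 1464 to 1531.

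Lower down, Gsta2 had 579 ± 35.0 per kilobase in Ccdc117ko and 509 ± 59.3 in WT, and Gsta3 had 555 ± 21.2 in Ccdc117ko and 344 ± 18.2 in WT. The order of these neighbours rests on which transcript is taken. The longest Gsta3 transcript, of 2792 bases, is longer than its longest protein-coding one, of 1457 bases, and per kilobase of that coding transcript Gsta3 had 1064 ± 40.6 in Ccdc117ko and 660 ± 34.8 in WT, above Gsta2 in both genotypes. Gstm3 had 56.9 ± 14.0 in Ccdc117ko and 52.6 ± 8.64 in WT, and Gsta1 had 26.5 ± 1.05 in Ccdc117ko and 22.8 ± 1.82 in WT. These were the least abundant members under both labels.

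**Figure D1:**
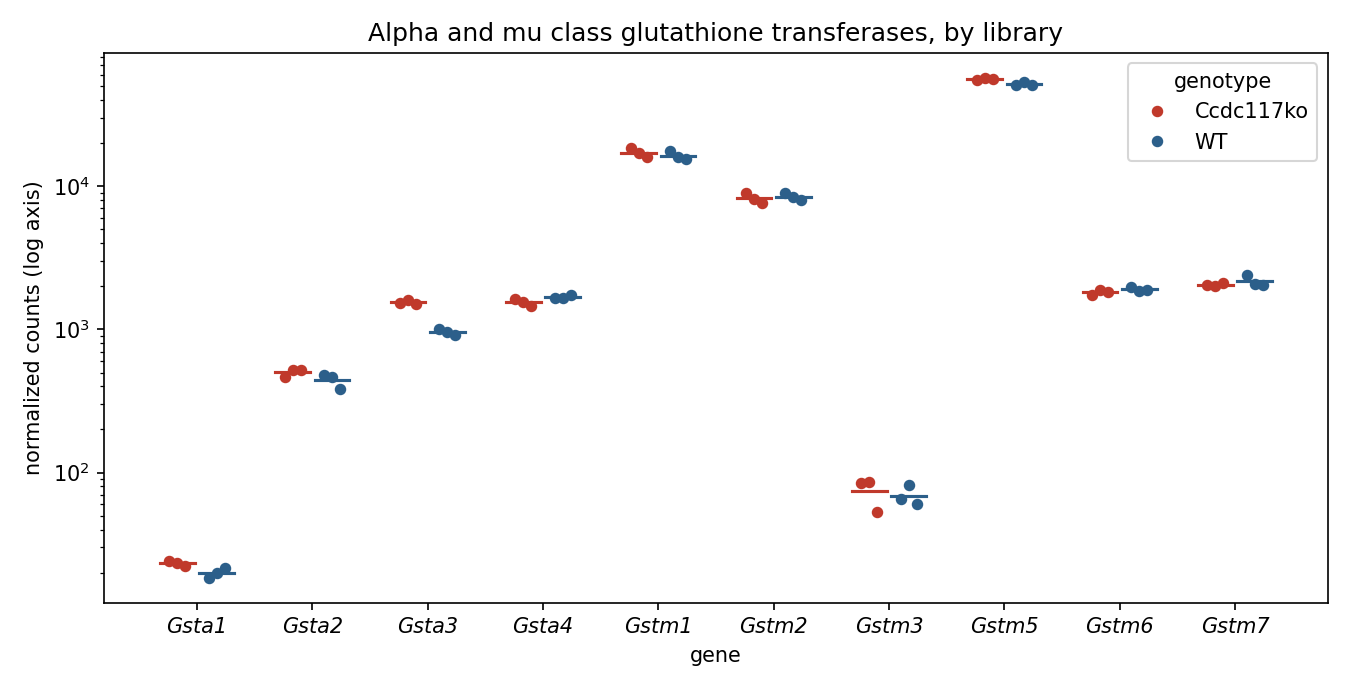
Normalized counts of the 10 members on a log axis, with 1 point per library, Ccdc117ko left of WT for each gene and a bar at the mean of 3 libraries. The points of Gsta3 are apart, at 1507 to 1618 in Ccdc117ko and 910.0 to 1011 in WT, while those of most other members lie side by side.

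Among the alpha genes, Gsta3 had the widest difference. Mouse GSTA3 is known for conjugating the epoxide of aflatoxin. It had 1527, 1618 and 1507 normalized counts in Ccdc117ko, against 1011, 963 and 910.0 in WT, so every Ccdc117ko library was above every WT library. Gsta3 averaged 1550.5 ± 59.2 in Ccdc117ko and 961 ± 50.7 in WT (SD, n = 3 each), 1.61 times as much in Ccdc117ko. The log2 difference was 0.69, with a limma standard error of 0.06. Over 20 alternatives to the processing it stayed between 0.65 and 0.73. These are not 20 separate checks, as some of them, such as the filters, cannot change a log2 difference. In bulk testis, a change in the number of cells of a type cannot be told apart from a change in RNA per cell.

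Gsta4 leaned the other way. It had 1620.0, 1559.8 and 1467 normalized counts in Ccdc117ko and 1668, 1655 and 1753 in WT. The genotypes did not overlap, with Ccdc117ko lower, and the log2 difference was -0.13 (standard error 0.05). Gsta2 had 469, 524 and 518 in Ccdc117ko and 482, 462 and 384 in WT, which overlap, with a log2 difference of 0.19 (standard error 0.10). Gsta1 had 24.0, 23.4 and 22.2 in Ccdc117ko and 18.4, 19.7 and 21.6 in WT. Its values did not overlap, but they rest on 17 to 24 reads per library, and the log2 difference of 0.21 was within its standard error of 0.22.

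How far these values belong to a single gene differs between members. Of the 50-base words of the longest transcript of Gsta1, 89.7% also occur in another gene, 82.9% in the predicted alpha gene Gm3776 and 44.6% in Gsta2. For Gsta2 the share was 64.2%, so reads of Gsta1, Gsta2 and their copies could be split or lost between them and their values are uncertain. For Gsta3 the share was 0.438%, and Gsta4 shared no such word. Open reading frames gave the same picture. Gsta1 and Gsta2 were 97.5% identical in bases, Gsta3 was 75.3% identical to Gsta1 and 76.4% to Gsta2, and Gsta4 was 66.4% to 68.7% identical to the other alpha genes.

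Among the mu genes, differences were small. Gstm5 had 55625, 57131 and 55917 normalized counts in Ccdc117ko and 51032, 53515 and 50969 in WT. Every Ccdc117ko library was above every WT library, by a fold of means of 1.08 and a log2 difference of 0.12 (standard error 0.03). After removal of trends with transcript length and GC content the difference was 0.06. The first 393 bases of Gstm5 overlap an antisense gene, 4933431E20Rik, which had 310 to 357 normalized counts in Ccdc117ko and 280.0 to 357 in WT; whether reads were counted by strand is not stated in the labels.

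The values of Gstm1 were 18393, 17050.5 and 15960.2 in Ccdc117ko and 17701, 15938 and 15403 in WT. Those of Gstm2 were 9000.2, 8143 and 7660.1 in Ccdc117ko and 9025, 8404 and 7964 in WT. Both genes overlapped between genotypes, with log2 differences of 0.07 (standard error 0.07) and -0.04 (standard error 0.07), and both were highest in replicate 1 under each label. Gstm6 had 1738, 1883 and 1816 in Ccdc117ko and 1969.7, 1844 and 1896 in WT, a log2 difference of -0.07 (standard error 0.05). Gstm7 had 2046, 2016 and 2108 in Ccdc117ko and 2417, 2068 and 2039 in WT. Its log2 difference of -0.08 (standard error 0.07) changed sign when WT replicate 1 was left out, to 0.00. That of Gstm2 changed sign without Ccdc117ko replicate 3 or WT replicate 1, and was at most 0.02.

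The least abundant mu gene, Gstm3, had 83.9, 86.4 and 53.4 normalized counts in Ccdc117ko and 65.1, 81.6 and 59.9 in WT, on 53 to 91 reads per library. The genotypes overlapped. The log2 difference was 0.09 (standard error 0.22), and it ran from -0.03 to 0.31 with a library left out, below 0 without Ccdc117ko replicate 1 or 2. Its coefficient of variation was 24.6% in Ccdc117ko and 16.4% in WT, against 1.42% in Ccdc117ko and 2.80% in WT for Gstm5. Gstm3 shared 28.8% and Gstm1 23.2% of their 50-base words with other genes, among them each other and pseudogenes. Gstm6 shared 11.5% and Gstm2 9.36%, while Gstm5 and Gstm7 shared none. Between mu genes the open reading frames were 65.9% to 85.5% identical, and between an alpha and a mu gene 52.8% to 55.2%.

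Over the 10 members, limma called 1 higher (Gsta3), none lower and 9 in neither direction. Among all genes tested, 3.70% were called higher, 3.10% lower and 6.80% in either direction. The median log2 difference of the members was 0.08, against 0.00 over all genes tested. Genotypes did not overlap for 3 members with Ccdc117ko higher (Gsta1, Gsta3, Gstm5) and 1 with Ccdc117ko lower (Gsta4), against 13.7% and 13.3% of all genes, 27.0% in either direction. As the same contrast was known when the members were chosen, nothing is read from these counts. Under the filter of at least 10 normalized counts, which called 16.6% of 22878 genes, 2 members were called, Gsta3 and Gstm5. Without Ccdc117ko replicate 1, 2 or 3 or WT replicate 2, no member was called with the wider set of genes. With at least 10 normalized counts, 1 to 2 were called with each library left out.

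**Figure D2:**
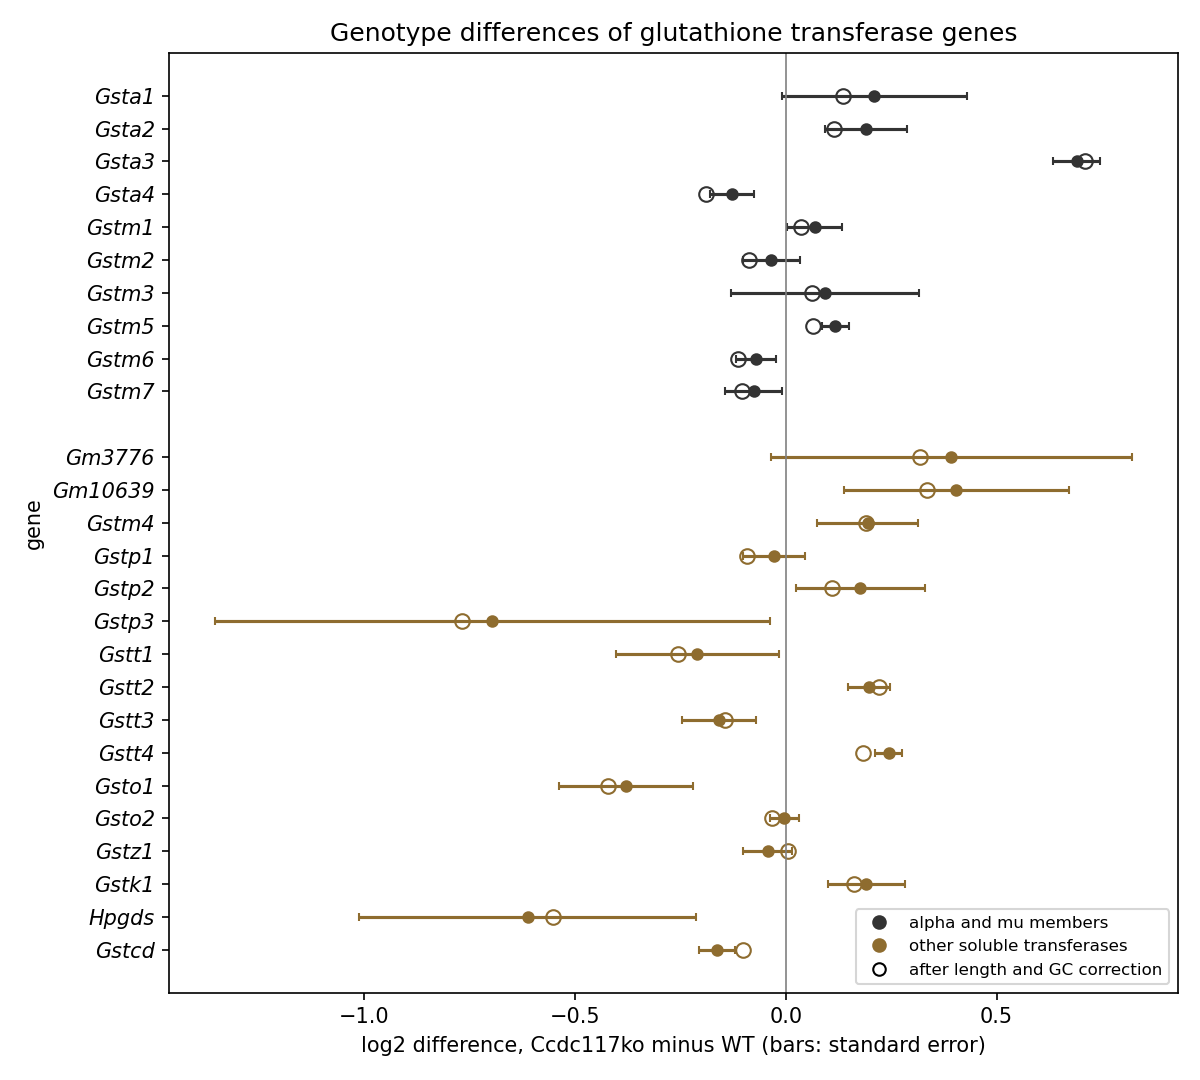
Log2 difference, Ccdc117ko minus WT, with its standard error from the limma fit, for the 10 members and the 16 other soluble transferases; open circles are the values after the length and GC correction. Gsta3 lies at 0.69, apart from the other members, which lie between -0.13 and 0.21.

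Summed over its 4 genes, the alpha class had 3639.7, 3725 and 3514 normalized counts in Ccdc117ko, against 3179.7, 3099 and 3069 in WT. The alpha sum averaged 3626 ± 106 in Ccdc117ko and 3116 ± 57.2 in WT (SD, n = 3 each), which is 1.16 times as much in Ccdc117ko. Gsta3 made up 42.8% ± 0.743 of the alpha sum in Ccdc117ko and 30.8% ± 1.10 in WT, and Gsta4 42.7% ± 1.56 in Ccdc117ko and 54.3% ± 2.47 in WT. The share of Gsta2 was 13.9% ± 0.944 in Ccdc117ko and 14.2% ± 1.45 in WT. These are shares of counts, not of counts per length, and the alpha sum carries the difference of Gsta3 that is already given. The mu class summed to 85570.0 ± 1803 in Ccdc117ko and 80797 ± 2143 in WT, a fold of 1.06, with no overlap (83515 to 86886 against 78331 to 82210). That sum carries the difference of Gstm5, which averaged 56224 in Ccdc117ko and 51839 in WT. The means of Gstm1 and Gstm3 were also higher in Ccdc117ko, and those of Gstm2, Gstm6 and Gstm7 lower. Gstm5 made up 65.7% ± 1.52 of the mu sum in Ccdc117ko and 64.2% ± 1.82 in WT, and these ranges overlapped. Alpha genes held 4.07% ± 0.0632 of the sum of the 10 members in Ccdc117ko and 3.71% ± 0.0616 in WT.

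**Figure D3:**
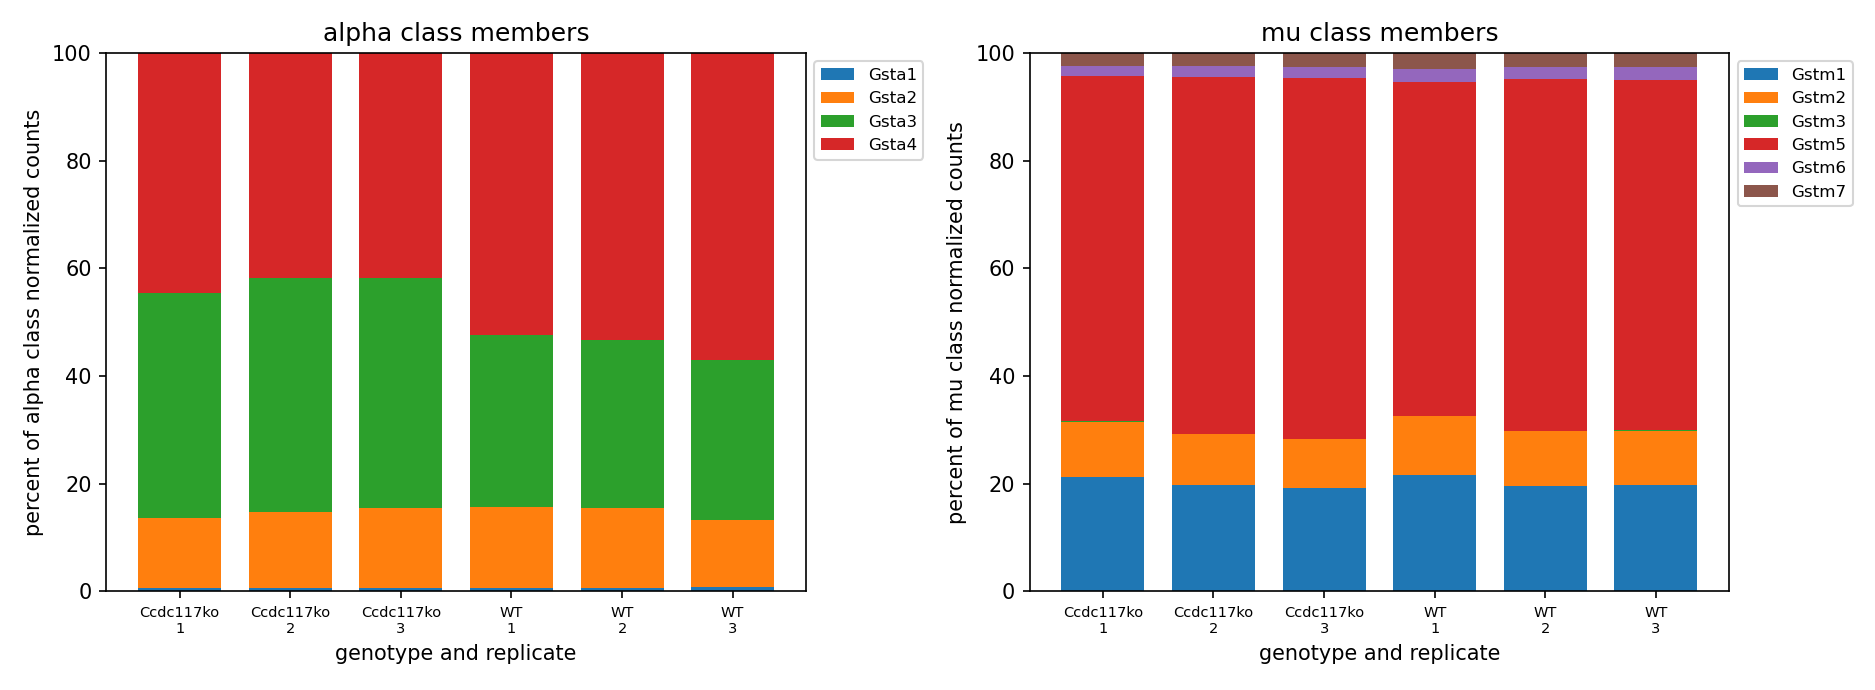
Share of each member in the summed normalized counts of its class, in percent, with 1 stacked bar per library and Ccdc117ko left of WT. In the alpha panel the Gsta3 band averages 42.8% in Ccdc117ko and 30.8% in WT, while the mu panel is filled mostly by Gstm5 under both labels.

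Some cell type marker lists differed between the genotype labels. Beside their counts, 3.70% of all genes tested were called higher and 3.10% lower. All 6 round spermatid markers were called higher, with a summed level of 49436 to 52060 normalized counts in Ccdc117ko and 39284 to 43266 in WT. Of 10 Sertoli cell markers, 4 were called lower and none higher (summed 58786 to 61039 in Ccdc117ko, 64288 to 66446 in WT). Of 6 spermatogonial markers 2 were called lower (summed 6998 to 7598 in Ccdc117ko and 8729.8 to 9423 in WT), as were 2 of 7 spermatocyte markers (summed 30492 to 30927 in Ccdc117ko and 33212 to 34375 in WT). Of 6 Leydig cell markers, 1 was called higher and 1 lower, with sums of 71327 to 84179.8 in Ccdc117ko and 62061 to 72190.0 in WT, which overlap. Of 5 macrophage markers 1 was called lower (summed 1708 to 1925 in Ccdc117ko and 2056 to 2292 in WT), and so was 1 of 4 peritubular markers, while 1 of 7 elongating spermatid markers was called higher. None of 18 endothelial, epididymal, fat and red cell markers was called by limma, and 2 were called with at least 10 normalized counts. Of the 18, 4 had an unadjusted p under 0.05. The share of all genes under that unadjusted p was not counted, so nothing is read from this count or like counts below. The 6 epididymal markers found, of which 5 were tested, summed to 136 to 184 in Ccdc117ko and 164 to 195 in WT. No marker tested was at 0 in all libraries. After the correction for length and GC, 6 round spermatid, 1 elongating spermatid and 1 Leydig marker were called higher. Lower were 1 Sertoli, 2 spermatogonial and 2 spermatocyte markers. Without WT replicate 1, 5 round spermatid markers were called higher and 3 Sertoli, 2 spermatogonial and 1 spermatocyte markers lower, and without any other library 0 markers of these 4 lists were called. With at least 10 normalized counts, all 6 round spermatid markers were called higher whichever library was left out, and 1 to 5 Sertoli, 2 spermatogonial and 1 to 3 spermatocyte markers lower. The part of these shifts in the values of the members was not tested.

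The soluble transferases outside the 10 members had 1 call among the 16 in the table, against 6.80% of all genes tested. Nothing is read from that count. Gstt4, a theta class gene next to Gstt1, Gstt2 and Gstt3 on chromosome 10, rose. It had 10770.1, 10712 and 10599 normalized counts in Ccdc117ko, against 9128, 9139 and 8833 in WT. The log2 difference was 0.24 (standard error 0.03, limma adjusted p = 0.0133), and correcting for length and GC gave 0.18 (limma adjusted p = 0.0172). The call was kept without WT replicate 1 (adjusted p = 0.0363) and lost without any other library, with adjusted p up to 0.107. Among genes with at least 10 normalized counts its limma adjusted p was 0.0018, and at most 0.0145 with a library left out.

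The other 15 passed the test in neither direction, and the median of the 16 log2 differences was -0.02. Gsto2, an omega class enzyme that reduces dehydroascorbate, had 8906 ± 1.80 normalized counts in Ccdc117ko and 8929 ± 252 in WT. Gstp1, the main pi class gene, had 827 ± 29.7 in Ccdc117ko and 845 ± 77.0 in WT. As 62.3% of the 50-base words of Gstp1 also occur in Gstp2, its values are uncertain. Gstz1, which isomerises an intermediate of tyrosine breakdown, had 1898 ± 102 in Ccdc117ko and 1956 ± 95.0 in WT. Gstm4, the mu gene that is not a member, had 443 ± 52.7 in Ccdc117ko and 387 ± 49.8 in WT (SD, n = 3 each), with overlap. The alpha genes Gm3776 and Gm10639 had 13.8 ± 4.13 and 26.5 ± 1.19 in Ccdc117ko against 10.7 ± 4.80 and 20.4 ± 6.12 in WT. Of the 6 membrane-bound microsomal transferases and relatives none was called by limma, against 6.80% of all genes tested. Among these 6, 1 had an unadjusted p under 0.05, and their median log2 difference was 0.07. The most abundant of these, Mgst1, had 1078 ± 66.7 in Ccdc117ko and 1054 ± 76.0 in WT.

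Genes that make, recycle and move glutathione gave 1 call among 22, against 6.80% of all genes tested, with a median log2 difference of -0.00. Nothing is read from that count. Abcc1, an export pump for glutathione conjugates, fell, with 1355, 1296 and 1334 normalized counts in Ccdc117ko against 1715, 1466 and 1672 in WT. Its log2 difference was -0.28 (standard error 0.07, limma adjusted p = 0.0441), and correcting for length and GC gave -0.14 (limma adjusted p = 0.191). Under that correction the call in this list was another gene in the other direction, Slc7a11, at 0.47 (limma adjusted p = 0.034). The call of Abcc1 with uncorrected values was lost whichever library was left out, with limma adjusted p of 0.0652 to 0.189.

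Among 14 peroxidases, glutaredoxins and glyoxalases that use glutathione, 2 rose and none fell, and the median log2 difference was 0.05. Of all genes tested, 3.70% were called higher and 3.10% lower. Gpx6, a glutathione peroxidase, had 727, 814 and 828 normalized counts in Ccdc117ko against 585, 554 and 535 in WT, a log2 difference of 0.50 (standard error 0.07, limma adjusted p = 0.0155). Glrx2, a glutaredoxin of mitochondria, had 4295, 4148 and 4328 in Ccdc117ko against 3744, 3733 and 3601 in WT, a log2 difference of 0.21 (standard error 0.04, limma adjusted p = 0.0234). Both genes had no overlap between genotypes, and both calls were kept without WT replicate 1 and lost without any other library (limma adjusted p up to 0.11 for each). With at least 10 normalized counts per gene the limma adjusted p was at most 0.0125 for Gpx6 and 0.0403 for Glrx2 with a library left out.

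The NRF2 pathway has target genes that are induced by oxidants and electrophiles and include many transferases. None of its 24 genes was called by limma in either direction, against 6.80% of all genes tested. Of the 24, 6 had an unadjusted p under 0.05, a count without the share of all genes beside it. The median log2 difference of the pathway was -0.02. Among its most abundant genes, Me1, which supplies NADPH, had 12380 ± 357 normalized counts in Ccdc117ko and 12468 ± 473 in WT, and Fth1, the ferritin heavy chain, had 7448 ± 479 in Ccdc117ko and 7117 ± 615 in WT. With at least 10 normalized counts 2 of the 24 were called, against 16.6% of all genes so tested. After the length and GC correction 1 of the 24 was called, Slc7a11, which is also in the list of glutathione supply. Of 28 xenobiotic enzymes, such as quinone and carbonyl reductases, sulfotransferases and cytochromes, 25 were tested. Of these 1 rose and none fell, beside the same 6.80% of all genes tested. That gene was Cbr3, a carbonyl reductase, with 83.9, 98.6 and 95.7 normalized counts in Ccdc117ko against 64.0, 47.5 and 48.2 in WT. Its log2 difference was 0.80 (standard error 0.17, limma adjusted p = 0.0346), and the call was kept without WT replicate 1 and lost without any other library, with limma adjusted p up to 0.156.

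**Figure D4:**
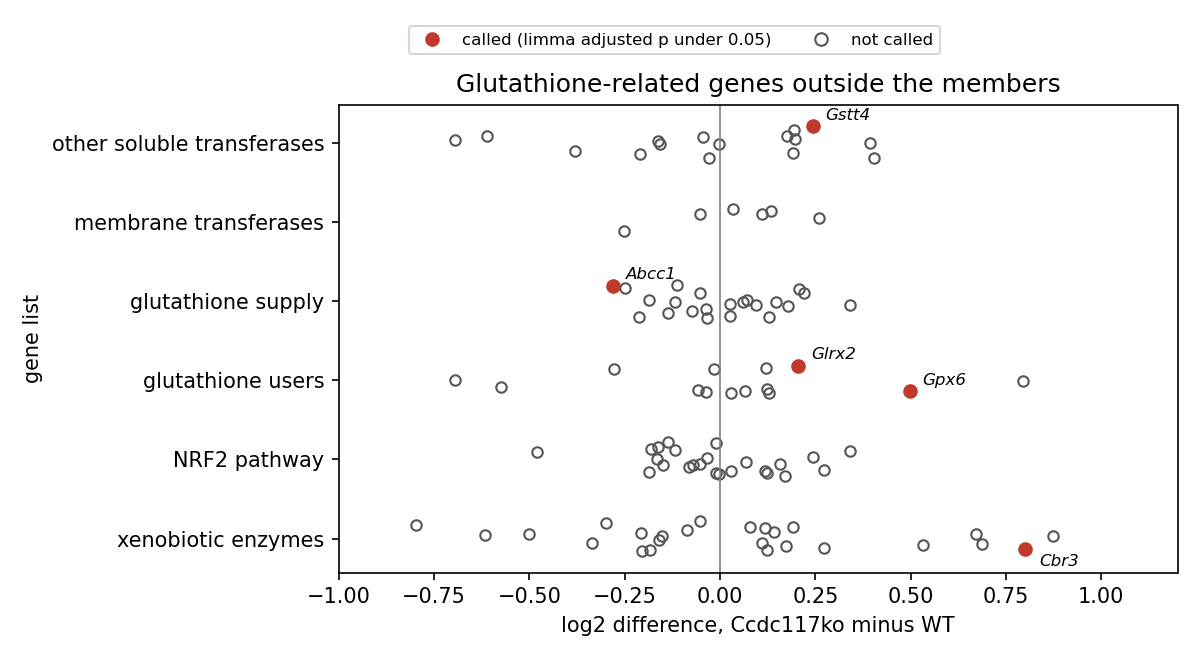
Log2 difference, Ccdc117ko minus WT, of each tested gene in 6 lists of glutathione-related genes outside the members, with 1 point per gene; filled points were called by limma. The called genes are Gstt4 at 0.24, Abcc1 at -0.28, Glrx2 at 0.21, Gpx6 at 0.50 and Cbr3 at 0.80, and the others lie on both sides of 0.

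RNA of 2 isoforms of 3-beta-hydroxysteroid dehydrogenase, named above beside human GSTA3, moved in opposite directions. A link between these genes and mouse Gsta3 was not tested. Hsd3b6 had 3953 ± 163 normalized counts in Ccdc117ko and 2193 ± 360 in WT (log2 difference 0.86, standard error 0.11, limma adjusted p = 0.0124), and Hsd3b1 had 1651 ± 40.8 in Ccdc117ko and 3078 ± 204 in WT (log2 difference -0.90, standard error 0.06, limma adjusted p = 0.000985). The call of Hsd3b1 was lost without Ccdc117ko replicate 2 or 3 or WT replicate 2 (limma adjusted p up to 0.0975), and that of Hsd3b6 was kept only without WT replicate 1 (up to 0.11), while with at least 10 normalized counts both were kept whichever library was left out. Of 14 genes of steroid synthesis, 5 were called higher and 2 lower, and 0 to 7 were called in all with a library left out. Among all genes tested 3.70% were called higher and 3.10% lower, and this list was chosen with earlier results known.

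Around the members, 55 genes that are not members lie within 200 kb, of which 49 were tested. None was called by limma, against 6.80% of all genes tested, and their median log2 difference was -0.04. Of these 49, 9 had an unadjusted p under 0.05, again without the share of all genes beside it. Near Gsta3 on chromosome 1, 6 neighbours were tested, and the 4 that averaged at least 10 normalized counts had log2 differences from -0.20 (Tram2) to 0.24 (Gm7094). Around the mu genes on chromosome 3 and the other alpha genes on chromosome 9, 22 and 21 neighbours were tested. Those that averaged at least 10 normalized counts ran from -0.47 (Amigo1) to 0.50 (Gpr61) on chromosome 3 and from -0.92 (Rn7sk) to 0.54 (Gm47430) on chromosome 9. With the filter of at least 10 normalized counts 1 neighbour was called, Gm34829 on chromosome 9, a long noncoding RNA gene, with a log2 difference of 0.47 (limma adjusted p = 0.0285).

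The genes most like Gsta3 and Gstm5 over the 6 libraries were taken by the smallest Euclidean distance between centred log2 values, among 17540 genes that averaged at least 50 normalized counts. For Gsta3 the nearest were 4930562D21Rik at a distance of 0.0918, Tmed6 at 0.118, Ccdc34os at 0.130, Gm21876 at 0.142 and Rapsn at 0.143, against a median distance of 0.906 over all genes compared. Tmed6, of a family of cargo receptors of the early secretory pathway, had 594 ± 3.21 normalized counts in Ccdc117ko and 377 ± 22.5 in WT. Rapsn, known for clustering acetylcholine receptors in muscle, had 301 ± 18.4 in Ccdc117ko and 195 ± 18.4 in WT. For Gstm5 the nearest were Abhd14a at 0.0174, Pfdn5 at 0.0207, Dynll2 at 0.0207, Fam229b at 0.0223 and 4930453N24Rik at 0.0241, against a median of 0.342. Pfdn5, a subunit of the prefoldin chaperone, had 8383 ± 155 in Ccdc117ko and 7754 ± 259 in WT, and Dynll2, a dynein light chain, had 11299 ± 109 in Ccdc117ko and 10429 ± 220 in WT (SD, n = 3 each). The distances are over 6 libraries that carry the genotype difference itself.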

How the data were processed

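RNA from testes was extracted with TRIzol, treated with DNase and made into stranded mRNA libraries for an Illumina HiSeq instrument, per the labels' protocols. STAR, DESeq2 and mm10 are named, without versions or roles, in the submitters' processing notes; the counting step is not given in the sources used here. A log2 value per gene and library was deposited by the authors; it was read, from the values themselves, as log2(normalized count + 1). The deposited p-values of a comparison whose test the file headers do not state were not used. Values under 500 reads were whole multiples of 1 step per library (100% whole within 0.01), which gives the reads per library.

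Limma-trend (limma 3.58.1, R 4.3.3) was fitted to the log2 values of the 32783 genes averaging at least 0.5 normalized counts, with no term besides genotype. P-values are two-sided and Benjamini-Hochberg adjusted over all genes tested (threshold 0.05). Because 1 is added before the log2, differences of genes with few reads are understated. The fit was tested on simulated data. The members and all gene lists were chosen with earlier results of these data known. The genes picked for naming were all members and up to 4 called genes per list or else the 2 most abundant. Added to them were 5 genes by likeness for the member of widest difference and for the most abundant member. Some picked genes, among them the marker genes and Star and Cyp17a1 of steroid synthesis, are not described above. Other soluble transferases, and the genes called only with at least 10 normalized counts, were named after their values were seen.

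GENCODE M21 (GRCm38) matched 36551 genes and gave their places, lengths and GC content; 50-base words of the longest transcript measured shared sequence. Within genotypes, no library was a duplicate of another (chi-square per degree of freedom 4.68 to 7.50). Libraries of different genotypes were not compared in this way. Alternatives were other filters, scalings, pseudocounts and weights, a replicate block, a length and GC correction and leaving out each library.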

Additional observations from a re-analysis of the deposited data

How the results depend on the processing

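Over 20 alternatives per gene, 198 of 200 values of the members moved by less than the spread between replicates. The other 2 came with the length and GC correction, which gave -0.19 for Gsta4 and 0.06 for Gstm5. A filter or the replicate block cannot change a log2 difference, so those values could not move. Each value with a library left out is also counted again under the filter of at least 10 normalized counts. The 200 values are therefore not 200 separate checks. The sign of a member changed in 10 of the 200 values, all of Gstm2, Gstm3 or Gstm7 with a library left out. Each of these changes is counted both with and without the filter of at least 10 normalized counts, at the same value. Of the other genes picked for naming, not all of which are described here, 572 values kept their call status, 164 lost a call and 4 gained one. None of the 500 values of called genes changed sign, while 16 of the 240 values of genes not called did, all of Mgst1, Me1 or Vwf. These counts of signs hold the same repeats. Without a filter 2219 genes were called in all. With at least 10 normalized counts, where the variance fit also ran on fewer genes, 3798 of 22878 genes (16.6%) were called. The counts were 2 of 10 for the members, 3 of 15 for the other soluble transferases, 2 of 21 for glutathione supply and 4 of 12 for its users. They were 2 of 24 for the NRF2 pathway, 4 of 22 for xenobiotic enzymes and 1 of 39 for the neighbours. With voom weights 2 members were called, and with upper-quartile scaling 2 other soluble transferases. With the length and GC correction 2 other soluble transferases and 1 gene of the NRF2 pathway, Slc7a11, were called. The cause of these shifts was not tested. All-gene calls split into 1446 higher and 431 lower with that correction, 1461 and 842 with upper-quartile scaling, and 1092 and 1152 with scaling by total reads, and none of these moved the median of all genes by over 0.1. With a library left out, the range was 6 to 1268 for all genes (1714 to 4021 with at least 10 normalized counts), 0 to 1 (1 to 2) for members, 0 to 2 (1 to 3) for other soluble transferases, 0 (0 to 2) for supply, 0 to 2 (2 to 4) for users, 0 to 1 (0 to 3) for the NRF2 pathway, 0 to 2 (2 to 6) for xenobiotic enzymes, 0 to 7 (6 to 11) for steroid synthesis and 0 (0 to 3) for neighbours; the combination of filter and left-out library was chosen after seeing the data. Deviations from the genotype means, over genes averaging at least 10 normalized counts, correlated at -0.00326, -0.00388 and 0.00611 between equal replicate numbers. No pairing by number was seen over these genes as a whole, but these values cannot exclude one that touches fewer genes. With a replicate block the counts were 703 for all genes, 0 for supply, 1 for users, 0 for xenobiotic enzymes and 4 for steroid synthesis. Depth limits Gsta1 and Gstm3. Shared sequence limits Gsta1 and Gsta2 most, and Gstm1, Gstm2, Gstm3 and Gstm6 to a lesser degree.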

Other observations

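When limma was run only on genes averaging at least 10 normalized counts, it called some glutathione genes that it had not called before; they were picked after their values were seen. Gpx4, the selenoenzyme that reduces lipid hydroperoxides and forms part of the sperm midpiece, had 55625, 54845 and 53397 normalized counts in Ccdc117ko against 49333, 51442 and 49760 in WT. Its limma adjusted p was 0.0307 there and 0.0594 over all genes tested, and the log2 difference of 0.12 was 0.07 after the length and GC correction. Gpx3, a secreted peroxidase, had 207, 287 and 292 in Ccdc117ko against 195, 153 and 110.1 in WT (limma adjusted p = 0.0142 there and 0.0735 over all genes). Slc7a11, which imports cystine for glutathione synthesis, had 239, 266 and 276 in Ccdc117ko against 203, 219 and 194 in WT (limma adjusted p = 0.0423 and 0.0707). Gstt2, a theta class transferase next to Gstt4, had 2801, 2979 and 2811 in Ccdc117ko against 2649, 2412 and 2437 in WT (limma adjusted p = 0.0246 and 0.0594), and Gstcd, which holds a transferase-like domain, was lower, with 1610.0, 1541 and 1511 in Ccdc117ko against 1744, 1734 and 1738 in WT (limma adjusted p = 0.0494 and 0.0645). With a library left out under the same filter, none of these 5 calls was kept in every case. Gpx3 was lost without Ccdc117ko replicate 2 or 3, Gpx4 without Ccdc117ko replicate 1 or 2 or WT replicate 3, and Gstt2 without Ccdc117ko replicate 2 or 3 or WT replicate 2 or 3. Slc7a11 was kept only without Ccdc117ko replicate 1 and Gstcd in no case, with limma adjusted p up to 0.148 over these 5 genes.

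In the same way Ftl1, the ferritin light chain, had 3842 ± 192 normalized counts in Ccdc117ko and 3249 ± 281 in WT (limma adjusted p = 0.0194 and 0.0723), and Aldh3a1, an aldehyde dehydrogenase, had 169 ± 36.0 in Ccdc117ko and 104 ± 17.7 in WT (limma adjusted p = 0.0202 and 0.0751, SD, n = 3 each). The call of Ftl1 was lost without Ccdc117ko replicate 1 or 2 or WT replicate 2 or 3, and that of Aldh3a1 without Ccdc117ko replicate 2 or 3 or WT replicate 2 or 3. Both other genes of these lists called in that way were lower in Ccdc117ko. Sult1e1, the estrogen sulfotransferase of Leydig cells, had 385, 462 and 340 normalized counts in Ccdc117ko against 666, 537 and 481 in WT (limma adjusted p = 0.0190 with at least 10 normalized counts and 0.0832 over all genes tested). Ugt1a7c, a glucuronosyltransferase, had 682, 744 and 829 in Ccdc117ko against 1867, 1338 and 887 in WT (limma adjusted p = 0.0131 and 0.0844). In both genes every Ccdc117ko library was below every WT library. The call of Sult1e1 was lost without Ccdc117ko replicate 3 or WT replicate 1, and that of Ugt1a7c was kept whichever library was left out (limma adjusted p up to 0.0483). Ugt1a6a, a gene of the same Ugt1a locus with which Ugt1a7c shares exons, had 1905, 1330.2 and 1019.9 in Ccdc117ko against 668, 454 and 1381 in WT, which overlap, so how reads were split between these genes leaves both values uncertain.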
